A study of Mus musculus with 4 samples.

Results

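The 7 genes described here, *Hmgcs1*, *Idi1*, *Fdft1*, *Sqle*, *Lss*, *Cyp51* and *Dhcr7*, encode enzymes of cholesterol synthesis. They were chosen by name as members of the pathway, with earlier results of these data known. All 7 were found among the 14924 genes of the deposited table by their Ensembl identifiers. RNA was measured by stranded polyA RNA-seq in 4 libraries of lenses from mice 1 month old on a C57BL/6J background. A pair of libraries was made from lenses of *S100A4* null mice, which lack this small calcium-binding protein of the S100 family, and the other pair from lenses of wild type (WT) littermates. Each library was a pool of 6 to 12 lenses. Mice of both sexes were used in the study, and the make-up of each pool is not given in the sources used here. With 2 pools of a genotype, p-values cover the spread between pools and not that between animals. The test, limma, also draws the spread of each gene toward that of genes at a similar level. Its p-values and intervals thus rest on other genes as well as on the pools. *S100A4* null pools 1 and 2 gave 81602367 and 74108017 reads on genes, and WT pools 1 and 2 gave 70253985 and 68038158. A normalized read count is the number of reads on a gene divided by a size factor of its library, so that 1 read was worth 0.856 and 1.01 in *S100A4* null pools 1 and 2 and 1.04 and 1.09 in WT pools 1 and 2. Values below are given in this order of pools.

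The libraries matched their labels. The normalized read count of *S100a4* itself was 14.6 and 18.2 in *S100A4* null against 14420 and 14385 in WT. Of 10 markers of lens fiber cells and 5 of lens epithelium, all were measured and none passed the test between genotypes, and the summed level of *S100A4* null libraries was 0.963 of WT for the fiber markers and 0.959 for the epithelial markers. Genes known from other parts of the eye were higher in the *S100A4* null libraries. The summed normalized read count of 9 rod photoreceptor markers was 8522 and 8406 in *S100A4* null and 2128 and 2187 in WT, all 9 were higher at an adjusted p of at most 0.05, and the most abundant, *Gnat1*, had 3339 and 3327 against 736 and 782.

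Cholesterol is made from acetyl-CoA through mevalonate, isoprenoid units and squalene, which is folded into lanosterol and trimmed to cholesterol. When sterols run low in the endoplasmic reticulum, SCAP escorts the SREBP transcription factors to the Golgi, where proteases release them to switch on the enzyme genes, and INSIG proteins hold SCAP back when sterols are plentiful. Lens fiber membranes are unusually rich in cholesterol, the lens has no blood supply to deliver it, and inherited faults in *LSS* or in *DHCR7* are known to go with cataract in humans.

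Of the 7 genes, *Hmgcs1* and *Cyp51* were lower in *S100A4* null lenses, where *Hmgcs1* fell by 14.1% and *Cyp51* fell by 13.0%, and the other 5 did not pass the test. The count is thus 2 of 7 lower and 0 higher with limma across all genes (Benjamini-Hochberg adjusted p of 0.05 or less), where 1.33% of the 14780 genes tested were lower, 5.62% higher and 6.96% either. At an unadjusted p below 0.05, 3 of the 7 were lower and 0 higher, beside 991 lower and 1620 higher of the 14780 genes. edgeR on recovered reads called 2 of the 7 lower and 0 higher, beside 181 and 859 of all genes, and DESeq2 called 1 and 0, beside 90 and 571. Under scaling to equal totals 0 of the 7 were lower and 0 higher, beside 55 and 783 of all genes. None of the 7 passed with a 2-fold change, as 0.0744% of genes did downward, 3.65% upward and 3.72% in either direction. Both *S100A4* null values lay below both WT values for 3 of the 7, *Hmgcs1*, *Cyp51* and *Dhcr7*, against 23.2% of all genes, and above both for 0 of the 7, against 23.7%. The log2 fold change was below 0 for 6 of the 7 and for 51.2% of all genes. The median log2 fold change of the 7 was −0.126, beside −0.005 for all genes. It was −0.017 without *S100A4* null pool 1 and −0.185 without pool 2. Of the 7, 6 had a mean normalized read count between 500 and 5000, a range in which 104 of 5262 genes were called lower, 156 were called higher, 1580 had both *S100A4* null values below both WT values, 3176 had a log2 fold change below 0, and the median was −0.025.

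The promoters of the pair that were lower are shown because the sterol response of this pathway is known to be read from the promoter, by SREBP at sterol regulatory elements together with NF-Y at CCAAT boxes and Sp1 at GC boxes. They are RefSeq sequences on GRCm38.p6, from 250 bases before the start site to 50 after it, 5′ to 3′ on the strand of the gene, with matches to the motifs in capitals. The *Hmgcs1* window is chr13:119690101-119690400 on the plus strand and the *Cyp51* window is chr5:4104648-4104947 on the minus strand.
Hmgcs1: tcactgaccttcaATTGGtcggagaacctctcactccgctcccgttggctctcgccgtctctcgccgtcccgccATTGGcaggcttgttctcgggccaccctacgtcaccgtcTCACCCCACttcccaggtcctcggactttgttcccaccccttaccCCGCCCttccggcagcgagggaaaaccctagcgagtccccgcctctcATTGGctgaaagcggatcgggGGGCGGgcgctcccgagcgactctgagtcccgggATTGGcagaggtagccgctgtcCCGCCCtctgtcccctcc
Cyp51: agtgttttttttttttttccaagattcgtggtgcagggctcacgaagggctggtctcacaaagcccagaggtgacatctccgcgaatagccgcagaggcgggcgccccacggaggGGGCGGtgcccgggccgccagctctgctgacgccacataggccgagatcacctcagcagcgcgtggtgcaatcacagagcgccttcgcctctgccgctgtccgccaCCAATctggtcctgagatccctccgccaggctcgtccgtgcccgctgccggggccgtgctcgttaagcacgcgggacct

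The motifs searched on both strands were TCACNCCAC and its shorter core CACNCCAC for the sterol regulatory element, CCAAT for NF-Y and GGGCGG for Sp1, and a match to the first always holds the second. The *Hmgcs1* window held TCACCCCAC at position −137 from the start site, 4 matches to CCAAT and 3 to GGGCGG. The *Cyp51* window held 1 CCAAT at −29 and 1 GGGCGG at −135, and no match to either form of the sterol element in these letters. Among 32851 promoter windows of the same length, 1.24% held TCACNCCAC, 6.24% CACNCCAC, 37.4% CCAAT and 35.7% GGGCGG. Promoter windows were found for 5 of the 7 genes, 7 windows in all since *Dhcr7* has 3. Apart from *Hmgcs1*, no window of a gene matched held the sterol element in these letters. Other forms of the element were not searched, so these windows, that of *Cyp51* among them, may still hold one. *Lss* held 1 CCAAT and 2 GGGCGG, *Idi1* 2 and 1, and of the 3 *Dhcr7* windows 1 held 2 CCAAT and 3 GGGCGG, 1 held 1 GGGCGG alone and 1 held none of the motifs. *Sqle* and *Fdft1* were not matched.

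*Hmgcs1* (ENSMUSG00000093930, chr13:119690379-119708260, plus strand, GRCm38), the cytosolic synthase that makes HMG-CoA at the head of the mevalonate pathway, had normalized read counts of 2698 and 2576 in *S100A4* null lenses and 3067 and 3072 in WT lenses. Both *S100A4* null pools were low, the WT pools lay almost on top of each other, and the groups did not overlap. The means were 2637 ± 85.7 (SD, n = 2) and 3069 ± 3.97 (SD, n = 2), a log2 fold change of −0.22 (SE 0.055, 95% interval −0.33 to −0.11, limma adjusted p = 0.00736). With any 1 library left out, and the library left alone in its group taken to vary like the other group, the fold change stayed between −0.25 and −0.19 but no longer passed, with adjusted p of 0.0650 and 0.145 without *S100A4* null pool 1 or 2 and 0.0652 and 0.0713 without WT pool 1 or 2. Scaling to equal totals (adjusted p = 0.139) and limma without its trend of variance (0.331) also ended the call. Of the 4640 runs of 50 bases in the annotated transcripts of *Hmgcs1*, 11.6% also occur in another gene, mostly in the antisense transcript *Gm48342*. The strand setting of the counting is not given in the sources used here. Whether reads of *Gm48342* changed the count of *Hmgcs1* was not tested.

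*Idi1* (ENSMUSG00000058258, chr13:8885501-8892451, plus strand), the isomerase that balances the isoprenoid building blocks, was close to the limit of detection. It had only 5 and 13 reads in *S100A4* null and 8 and 18 in WT, normalized read counts of 4.28 and 13.2 against 8.35 and 19.7. The replicate pools differed more than the genotypes and the groups overlapped, with a log2 fold change of −0.69 (95% interval −2.03 to 0.66, adjusted p = 0.658) that became 0.03 without *S100A4* null pool 1. A normalized value of 3 reads is between 2.57 and 3.29, so the lowest library lay just above it, and a difference within the interval was not detectable at this depth. Of the 3594 runs of 50 bases in its transcripts, 25.3% occur in 5 other genes, 635 of them in the processed pseudogene *Gm13502*, and the authors counted only reads with a single place in the genome. Whether this lowered the count of *Idi1* was not tested.

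*Fdft1* (ENSMUSG00000021273, chr14:63145150-63179578, minus strand), squalene synthase, which commits isoprenoids to sterols, had 1502 and 1711 in *S100A4* null and 1721 and 1695 in WT. The first *S100A4* null pool was low and the second lay between the WT pools, so the groups overlapped (log2 fold change −0.09, 95% interval −0.23 to 0.04, adjusted p = 0.522). The log2 fold change of *Fdft1* was 0.00 without *S100A4* null pool 1 and −0.19 without pool 2. In its transcripts 26.5% of the runs of 50 bases occur in another gene, 725 of 1121 of these in *Ctsb*. *Sqle* (ENSMUSG00000022351, chr15:59315077-59331192, plus strand), the epoxidase that adds oxygen to squalene and is a known control point of the pathway, had 1074 and 1054 in *S100A4* null and 1059 and 1074 in WT. The 4 values lay within the same narrow band, and the 95% interval of the log2 fold change was −0.15 to 0.14 (adjusted p = 0.990). *Lss* (ENSMUSG00000033105, chr10:76531588-76557138, plus strand), the cyclase that folds the squalene epoxide into lanosterol, had 1583 and 1711 in *S100A4* null and 1565 and 1634 in WT. It was the member with a fold change above 0, at 0.04 (95% interval −0.09 to 0.17, adjusted p = 0.812), or −0.01 without *S100A4* null pool 2, and its groups overlapped.

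*Cyp51* (ENSMUSG00000001467, chr5:4081145-4104746, minus strand), the demethylase that takes the first methyl group off lanosterol, had 1907 and 1919 in *S100A4* null and 2230 and 2167 in WT. The *S100A4* null pools agreed closely and both lay below both WT pools. The means were 1913 ± 8.09 (SD, n = 2) and 2199 ± 44.9 (SD, n = 2), a log2 fold change of −0.20 (SE 0.060, 95% interval −0.32 to −0.08, limma adjusted p = 0.0299). The adjusted p was 0.190 and 0.158 without *S100A4* null pool 1 or 2 and 0.241 and 0.0960 without WT pool 1 or 2, and the call also ended under DESeq2 (0.109), with limma without its trend (0.349) and under scaling to equal totals (0.265), by size factors from abundant genes (0.0798) or by quantiles (0.0854). Of the runs of 50 bases in its transcripts, 2.8% occur in another gene.

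*Dhcr7* (ENSMUSG00000058454, chr7:143823145-143848410, plus strand), the reductase that finishes cholesterol from dehydrocholesterol, had 3628 and 3603 in *S100A4* null and 3849 and 4047 in WT. The *S100A4* null pools were again the lower pair without overlap, but the WT pools stood further apart from each other than the *S100A4* null pools did. The means were 3616 ± 18.0 (SD, n = 2) and 3948 ± 140.0 (SD, n = 2), a difference of −8.41% with a log2 fold change of −0.13 (95% interval −0.23 to −0.02) that did not pass (adjusted p = 0.169). In bulk lens RNA, fewer cells of a type and less RNA per cell cannot be told apart, for *Dhcr7* as for the other genes. Summed over the 7 genes, the normalized read count was 12397 and 12587 in *S100A4* null and 13499 and 13708 in WT, 0.918 of WT, with both *S100A4* null pools below both WT pools.

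**Figure D1:**
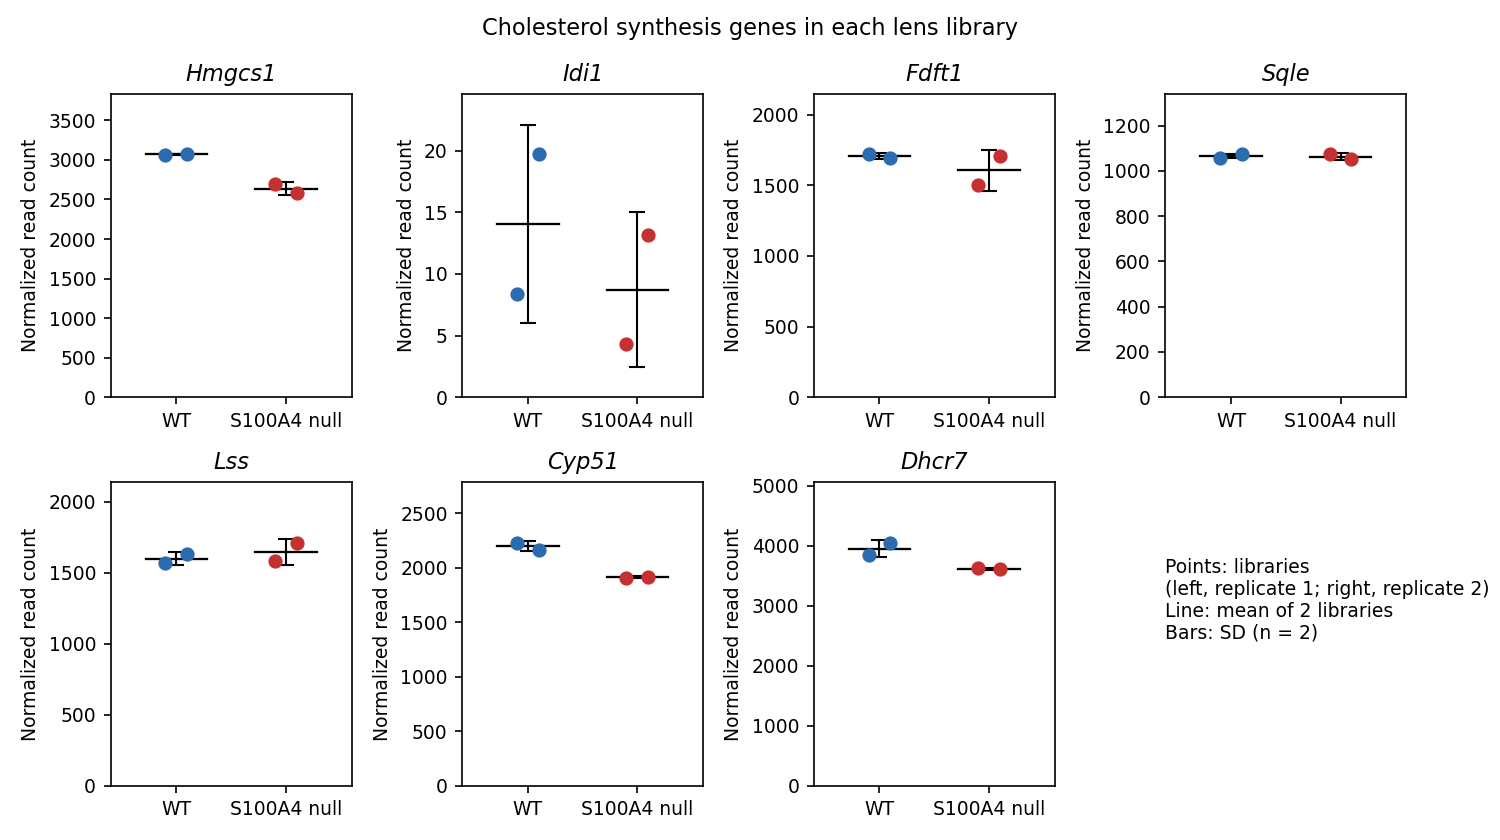
Normalized read count (vertical axes, from 0, a scale for each gene) of the 7 cholesterol synthesis genes in the 2 WT (blue) and 2 S100A4 null (red) libraries, with points for libraries, a line for the mean and bars for the SD (n = 2). The red points lie below the blue ones without overlap for Hmgcs1, Cyp51 and Dhcr7, while the groups overlap for Idi1, Fdft1, Sqle and Lss.

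Levels can be set side by side between genes only per length, so normalized read counts were divided by the length of the longest principal mRNA in kilobases. In WT lenses *Dhcr7* had the highest level per kilobase, 1402 ± 49.7 (SD, n = 2), and *Hmgcs1* followed at 886 ± 1.15 (SD, n = 2). *Cyp51* was at 559 ± 11.4, *Fdft1* at 462 ± 4.94, *Sqle* at 387 ± 3.93 and *Lss* at 343 ± 10.4 per kilobase (SD, n = 2 each). *Idi1* stood far below, at 4.64 ± 2.65 (SD, n = 2). No neighbours in this order overlapped between the WT libraries, and *S100A4* null lenses had the same order, from 1289 and 1280 for *Dhcr7* to 1.41 and 4.35 for *Idi1*. Divided by the length of all annotated exons instead, the WT values of *Dhcr7* (662 and 696) and *Hmgcs1* (668 and 669) overlapped, so these 2 were not ordered on that scale.

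Among the other 14 enzymes of the pathway *Msmo1* was lower and 13 did not pass. The share called, 7.14%, was near the 6.96% of all genes, with 1 lower and 0 higher at a median log2 fold change of −0.018, and at an unadjusted p below 0.05 it was 3 lower and 0 higher, with 1 and 0 called by edgeR and 0 and 0 by DESeq2. *Msmo1*, the oxidase that removes the next methyl groups after CYP51, had 505 and 500 in *S100A4* null and 633 and 621 in WT, with both *S100A4* null pools well below both WT pools (log2 fold change −0.32, SE 0.091, adjusted p = 0.0228). Without *S100A4* null pool 1 or 2 its adjusted p was 0.185 and 0.189, and without WT pool 1 or 2 it was 0.129 and 0.0764, and equal totals (0.133), DESeq2 (0.164) and limma without its trend (0.190) ended the call too.

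*Hsd17b7*, a sterol ketone reductase, was similar to *Msmo1* in size at a log2 fold change of −0.33, with 384 and 327 against 430 and 464, and missed the threshold (adjusted p = 0.0569). *Pmvk*, a kinase of the mevalonate steps and among the 3 most abundant of the 14, had 814 and 811 against 927 and 783, with overlap (log2 fold change −0.07, adjusted p = 0.743, and 0.05 without WT pool 1). Over all 21 enzymes 3 were lower and 0 higher, beside 1.33% and 5.62% of all genes, and the median log2 fold change was −0.036. Both *S100A4* null values lay below both WT values for 6 of the 21 and above for none, beside 23.2% and 23.7% of all genes. Their summed normalized read count was 19374 and 19762 in *S100A4* null and 21014 and 21074 in WT, 0.930 of WT.

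**Figure D2:**
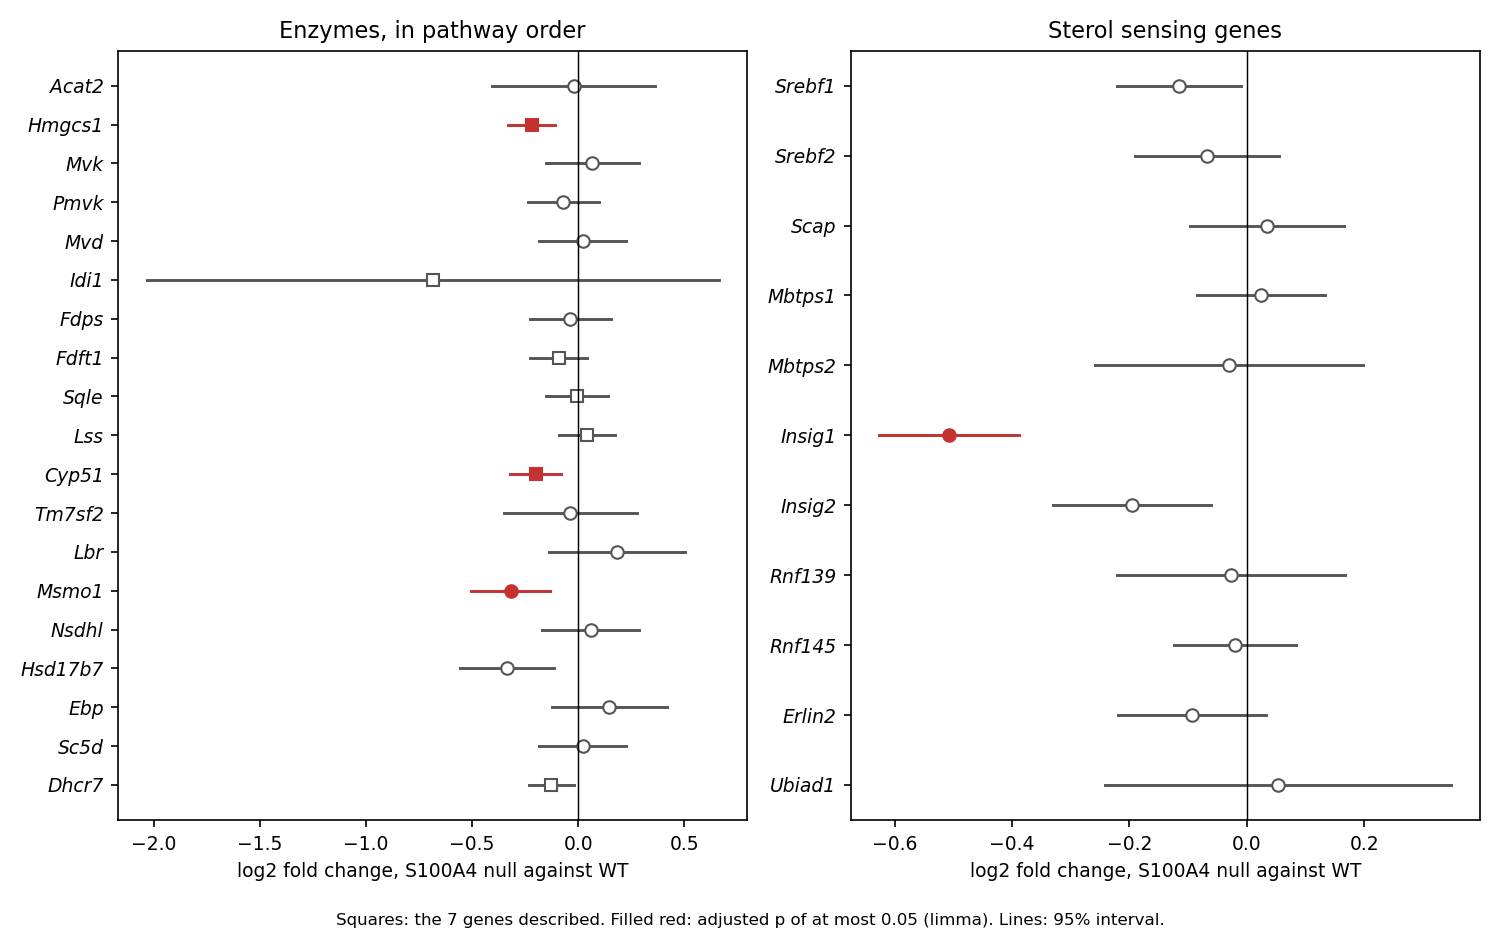
Log2 fold change of S100A4 null against WT lenses (horizontal axes) for 19 enzymes in pathway order (left) and for 11 genes of sterol sensing (right), with lines for the 95% interval, squares for the 7 genes described, circles for the others, and red filled symbols at an adjusted p of at most 0.05. Hmgcs1, Cyp51 and Msmo1 are the enzymes in red, between −0.32 and −0.20, and Insig1 stands alone on the right at −0.51.

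*Insig1*, the sterol sensor that keeps SCAP in the endoplasmic reticulum and is itself a known target of SREBP, had the smallest adjusted p of the pathway, uptake and export genes described here. Its normalized read count was 2155 and 1973 in *S100A4* null and 2942 and 2920 in WT. The gap between genotypes was far wider than that between pools, and *S100A4* null fell by 29.6%, a log2 fold change of −0.51 (SE 0.059, 95% interval −0.63 to −0.39, limma adjusted p = 2.47e-08). With each library left out in turn it passed in 4 of 4 fits, with adjusted p from 9.10e-09 to 0.00436 and a fold change between −0.57 and −0.44, and among the fits of all 4 libraries it missed only in limma without its trend of variance (0.133). Of the 12 genes of SREBP control, *Insig1* was the only one called, with 1 lower and 0 higher and a median log2 fold change of −0.029, so that 8.33% of the list was called beside 6.96% of all genes. At an unadjusted p below 0.05 it was 3 lower and 0 higher, and edgeR and DESeq2 each called 1 lower and 0 higher.

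*Insig2*, the related sensor, had 1521 and 1422 in *S100A4* null and 1749 and 1623 in WT, the lower pair without overlap at a log2 fold change of −0.20, and did not pass (adjusted p = 0.0688). The transcription factor genes themselves gave smaller values. *Srebf1* had 3704 and 3852 against 3990 and 4202 (log2 fold change −0.12, adjusted p = 0.218), and *Srebf2*, the form best known for cholesterol genes, had 2171 and 2320 against 2254 and 2455 (−0.07, adjusted p = 0.621). *Srebf1* did not overlap between genotypes and *Srebf2* did. *Rnf145*, a ubiquitin ligase gene of sterol control, had 4039 and 3932 against 4067 and 4018, with a log2 fold change of −0.02 (adjusted p = 0.891).

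**Figure D3:**
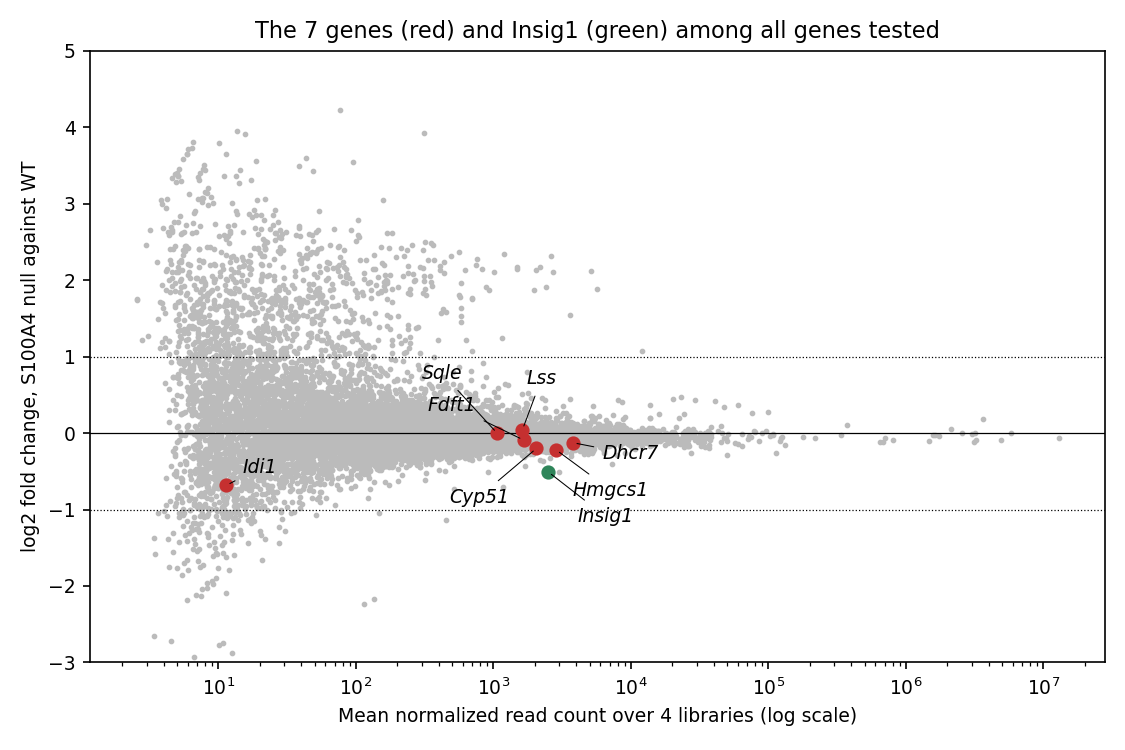
Log2 fold change of S100A4 null against WT (vertical axis, dotted lines at 2-fold) over the mean normalized read count of the 4 libraries (horizontal, log scale) for the 14780 genes tested (grey), the 7 cholesterol synthesis genes (red) and Insig1 (green), with 2 genes outside the drawn range of −3 to 5. The 7 genes lie inside the 2-fold lines, 6 of them at the narrow part of the cloud and Idi1 among genes with few reads, and Insig1 lies at the lower edge of the cloud at its level.

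For uptake and storage of sterols, 0 of 11 genes were lower and 2 were higher, beside 1.33% and 5.62% of all genes, at a median log2 fold change of 0.057, while at an unadjusted p below 0.05 it was 1 lower and 2 higher. edgeR called 0 lower and 2 higher and DESeq2 0 and 1. *Vldlr*, the receptor for very low density lipoproteins, was higher, with 1124 and 1002 against 774 and 796 (log2 fold change 0.44, adjusted p = 1.21e-04). *Lrp1*, a large receptor for apolipoprotein E, was higher too, with 8638 and 7477 against 6423 and 7299 (log2 fold change 0.23, adjusted p = 0.00514).

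Neither receptor overlapped between genotypes, but both calls were lost without the first *S100A4* null pool. The log2 fold change of *Vldlr* was then 0.35 (adjusted p = 0.0991) and that of *Lrp1* 0.13 (0.475), and without WT pool 1 that of *Lrp1* was 0.14 (0.285). Limma without its trend ended both calls (0.200 and 0.548), and DESeq2 that of *Lrp1* (0.631). *Npc2*, which hands cholesterol out of the lysosome, had 3107 and 3215 against 3361 and 3272 (log2 fold change −0.07, adjusted p = 0.551).

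For export and oxysterols, 0 of 9 genes were lower and 1 was higher, beside 1.33% and 5.62% of all genes, at a median log2 fold change of 0.254, and at an unadjusted p below 0.05 it was 0 lower and 2 higher. edgeR and DESeq2 each called 0 lower and 1 higher. *Abcg1*, a cholesterol exporter and a known target of the oxysterol receptor LXR, had 97.6 and 81.1 in *S100A4* null and 32.4 and 44.9 in WT. Both *S100A4* null pools were higher than both WT pools, at a log2 fold change of 1.20 (SE 0.27, adjusted p = 0.00219), the 1 gene of these lists that passed the test with a 2-fold change, and its adjusted p was 0.237 without *S100A4* null pool 1 0.121 without pool 2 and 0.157 with limma without its trend. *Nr1h2*, which encodes a form of LXR and is the most abundant of the list, had 809 and 833 against 791 and 751 (log2 fold change 0.09, adjusted p = 0.619). *Abca1*, the other well known exporter, had 489 and 431 against 450 and 492 with overlap (−0.04, adjusted p = 0.907), and *Cyp7b1*, which clears oxysterols, had 179 and 179 against 251 and 195 (−0.30, adjusted p = 0.289).

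Markers of cells outside the lens moved in the same libraries and most of them upward. Beside the rod markers, the sum of 6 cone markers was 256 and 259 in *S100A4* null and 108 and 114 in WT (4 of 6 higher, *Opn1sw* the most abundant), that of 5 pigment cell markers 1177 and 1230 against 174 and 261 (5 of 5 higher, *Dct* the most abundant), and that of 5 endothelial markers 399 and 404 against 148 and 185 (2 of 5 higher, *Flt1* the most abundant). The sum of 5 macrophage markers was 281 and 225 against 99.2 and 79.9 (4 of 5 higher, *Csf1r* the most abundant). Of 6 Müller glia markers 3 were higher, with a sum led by *Dkk3* of 85186 and 86915 against 80483 and 80880, and of 2 smooth muscle markers 1 was higher, with a sum led by *Acta2* of 16640 and 18413 against 16665 and 17121. None of the markers tested was lower. The corneal marker *Krt12* had 9.42 and 6.08 against 5.22 and 0, too few to be tested. The part of these cells in the lower values of *Hmgcs1*, *Cyp51*, *Msmo1* and *Insig1* and in the higher values of *Abcg1*, *Vldlr* and *Lrp1* was not tested.

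**Figure D4:**
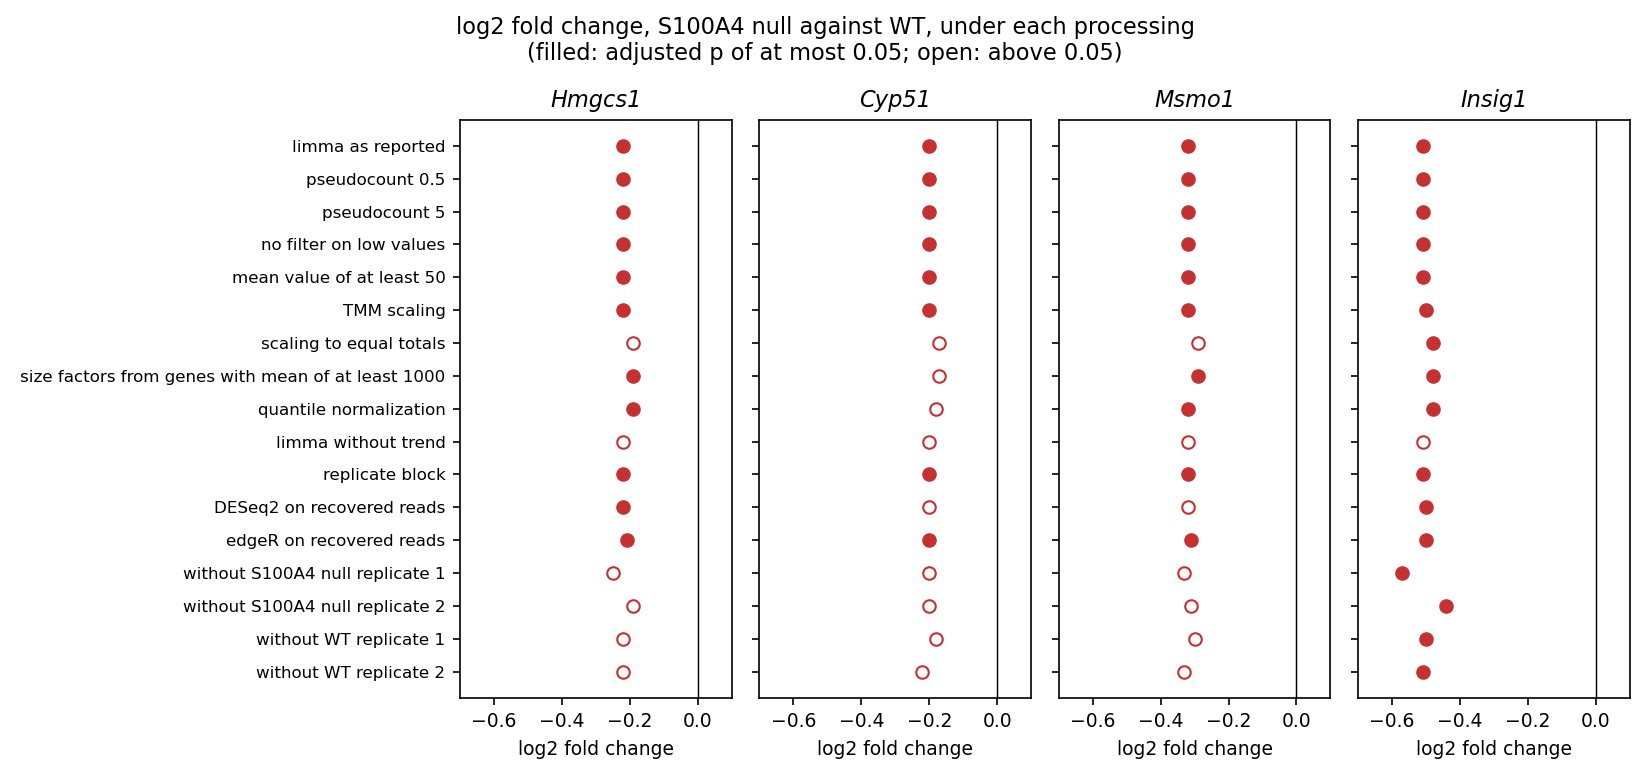
Log2 fold change of S100A4 null against WT (horizontal axes) of Hmgcs1, Cyp51, Msmo1 and Insig1 in the fit as reported (top row) and in 16 others, with filled points at an adjusted p of at most 0.05 and open points above it. All points lie left of 0, and in the 4 lowest rows, each without 1 library, Hmgcs1, Cyp51 and Msmo1 are open while Insig1 is filled.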

How the data were processed

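RNA-seq of lenses from mice 1 month old gave 2 *S100A4* null and 2 WT libraries, grouped by the sample labels. Per the labels and the study's methods, the authors used Trim Galore on 50-base single-end reads, aligned them to GRCm38 with STAR, counted reads of a single locus with HTSeq and divided by DESeq2 size factors (versions not given in the sources used here). The deposited signal values are these normalized counts. Divided by the value of 1 read, 100.0% of a library's values came out whole within a tolerance of 0.02, so reads were recovered, and all columns had a sample (0 without). Of 14924 genes, 14782 matched GENCODE M21.

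Genotypes were compared with limma 3.58.1 (R 4.3.3, lmFit and eBayes with trend) on log2(value + 1), with 14780 genes that reached a value of 10 in any library (144 left out), with Benjamini-Hochberg adjustment and a threshold of 0.05, and apart from that with the 2-fold threshold of the study. Fold changes on this scale understate those of genes with few reads. A floor of 3 reads and the depth cover counting error only. The fits were run on simulated data, in which the changes put in were larger than those of *Hmgcs1* and *Cyp51*. Changes as small as theirs were not covered. Alternatives were pseudocounts of 0.5 and 5, no filter, a mean of at least 50, other scalings (TMM, equal totals, size factors from genes with a mean of at least 1000, quantiles), no trend, the replicate block, DESeq2 1.42.0 and edgeR 4.0.16 on recovered reads, and each library left out.

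The 7 genes and all lists were chosen with earlier results of these data known. Beside the 7 genes, those named are the called genes of each list, its 3 most abundant, and the 5 genes nearest to the mean profile. *Hsd17b7*, *Insig2*, *Srebf2* and single markers were named after their values were seen. Promoters were printed for called members or those with TCACNCCAC. *Idi2*, *Slc45a2*, *Aif1*, *Krt5*, *Krt14* and *Des* were not analysed here. Some other genes of the lists, counted with them, are not reported by name here.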

Additional observations from a re-analysis of the deposited data

How the results depend on the processing

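Of 46 genes followed through 16 alternatives (735 values), 687 stayed on the same side of the threshold, 642 of them with the same sign, 46 lost the call and 2 gained it under the replicate block. The other 45, in 19 genes, changed sign without a call in either fit, 28 of them with 1 library left out, and 0 were of genes called as reported. Over all genes, the 550 calls with the 2-fold threshold became 287 at a mean of at least 50 and 181 without the trend, and were 172 to 559 with 1 library left out, lowest without *S100A4* null pool 1 (172) and pool 2 (216). The 1028 calls without a fold threshold became 187 without the trend and 661 with DESeq2, against 1040 with edgeR, and 249 to 898 with 1 library left out (249 and 339 without *S100A4* null pool 1 or 2). Of the calls 80.8% were higher (197 lower, 831 higher), and 93.4% under equal totals (55 and 783). The 2 calls among the 7 genes became 0 under equal totals and without the trend and 1 (*Hmgcs1*) with size factors from abundant genes, quantiles or DESeq2, and 0 in each of the 4 fits with 1 library left out, where 2 or 3 still had an unadjusted p below 0.05. The 3 calls among 21 enzymes became 0 under equal totals and without the trend, 1 with DESeq2 and 0 in each fit with 1 library left out. The median of the 7, −0.126, was −0.085 under quantiles and −0.185 to −0.017 with 1 library left out (−0.017 without *S100A4* null pool 1). Causes of these changes were not tested. Some of these settings, but not all, hold fewer genes or libraries. No scaling moved the median of all genes outside −0.032 to 0.025.

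Same-numbered libraries are pools of different animals, and their deviations correlated at 0.012 over all genes tested and 0.056 at a mean of at least 50, so the numbers do not pair them. With the replicate block there were 591 calls with and 1330 without the 2-fold threshold, 2 among the 7 genes and 4 among the enzymes, adding *Hsd17b7*, and the median stayed at −0.126.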

Other observations

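Fatty acid synthesis shares control by SREBP with cholesterol synthesis. Of its 13 genes 2 were lower and 0 higher, beside 1.33% and 5.62% of all genes, at a median log2 fold change of −0.050. Both *S100A4* null values lay below both WT values for 7 and above for 0, beside 23.2% and 23.7% of all genes, and at an unadjusted p below 0.05 it was 4 lower and 0 higher, with 2 lower called by edgeR and 1 by DESeq2 and 0 higher by either. *Scd2*, the abundant desaturase, had 60021 and 61687 in *S100A4* null and 67250 and 69188 in WT (log2 fold change −0.16, limma adjusted p = 0.00533), and *Elovl6*, which lengthens fatty acids, had 956 and 856 against 1103 and 1051 (−0.25, adjusted p = 0.0369). *Scd2* passed in 1 of 4 fits with a library left out, the one without *S100A4* null pool 2 (adjusted p 0.0349 there, 0.104 without pool 1, 0.0807 and 0.244 without WT pool 1 or 2), and *Elovl6* in 0 of 4 (0.107, 0.368, 0.244 and 0.0620 in the same order without *S100A4* null pool 1, 2 and WT pool 1, 2). Equal totals and limma without its trend also ended the calls of *Scd2* (0.0979 and 0.443) and of *Elovl6* (0.235 and 0.397), and that of *Elovl6* was lost with size factors from abundant genes (0.0807), quantiles (0.0874) and DESeq2 (0.222). *Fasn*, the fatty acid synthase, had 4619 and 4703 against 5079 and 5233 without overlap (−0.15, adjusted p = 0.0698), and *Fads1*, a desaturase of long fatty acids, 4424 and 4656 against 4674 and 4721 (−0.05, adjusted p = 0.675).

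Branches that take isoprenoids away from sterols, to prenylated proteins, dolichol and ubiquinone, gave 0 calls among 9 genes with limma, edgeR and DESeq2 and 0 at an unadjusted p below 0.05, at a median log2 fold change of −0.001, beside 6.96% of all genes called with limma and 991 lower and 1620 higher of the 14780 at an unadjusted p below 0.05. Their most abundant genes were *Fnta*, a subunit of protein prenyl transferases, at 2968 and 3322 against 3229 and 3057, *Coq2* of ubiquinone synthesis at 1073 and 1068 against 1149 and 996, and *Dhdds* of dolichol synthesis at 778 and 910 against 807 and 864.

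The genes whose centred log2 values over the 4 libraries lay nearest to the mean of the 7, of 8489 with a mean of at least 200, were *Tspan17* (root mean square difference 0.00997), *Pelp1* (0.0155), *Pgf* (0.0176), *E4f1* (0.0182) and *Plp2* (0.020). The few reads of *Idi1* set most of that mean profile. Without *Idi1*, an alternative chosen after seeing the data, the nearest were *Stx18* (0.00400), *Slc15a2* (0.00459), *Pigk* (0.00612), *Fxr2* (0.00645) and *Fchsd2* (0.00681), with 0 genes in common, and 1931 of the 8489 genes lay within 0.05. None of these 10 nearest genes passed the test.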
